A study of Mus musculus with 46 samples.

Results

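NF-kB and C/EBP transcription factors drive the acute inflammatory program of many tissues, and the genes described here are those that switch NF-kB off, its subunits, the C/EBP factors and a pair of receptors that signal to NF-kB. The set was given as 10 named genes, and its members were all probesets whose platform symbol was one of these names. Of the 10 genes 9 had a probeset, which gave 18 of the 45037 probesets measured, and Nfkb1 was not analysed here. The genes are the inhibitors Nfkbia and Tnfaip3, the subunits Nfkb2 and Rela, the C/EBP factors Cebpa, Cebpb and Cebpd, and the receptors Il1r1 and Tnfrsf1a. The series profiled a forebrain nucleus of the extended amygdala, the stria terminalis bed nucleus (BNST), with Affymetrix expression arrays, 1 adult male C57BL/6J mouse per array and 46 arrays in all. Mice went through 4 cycles of chronic intermittent ethanol vapor (CIE, 22 mice) or of air (Ctrl, 24 mice), each of 4 days with 16 hours a day in the chamber and separated by 7 days without ethanol. Each CIE cycle began with ethanol (1.6 g/kg) and pyrazole (1 mmol/kg), and each Ctrl cycle with saline and the same dose of pyrazole, an inhibitor of alcohol dehydrogenase, so Ctrl is a control for ethanol and not an untreated mouse. Brains were collected at the end of the last session (0 h) or 8 h, 72 h and 7 d later. There were 6 mice in each of 7 groups and 4 in the group of CIE at 7 d.

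In resting cells NF-kB dimers, of which Rela is the main activating subunit, are held in the cytoplasm by IkB proteins. Tumor necrosis factor and interleukin 1, acting through receptors such as Tnfrsf1a and Il1r1, activate a kinase complex that marks IkB for destruction, and the freed dimers enter the nucleus. Among the genes they induce are Nfkbia, which codes for IkB alpha, and Tnfaip3, which codes for the ubiquitin-editing protein A20, and both products then restrain the pathway. Cebpb and Cebpd code for leucine zipper factors of the acute phase response, and Cebpa for a relative best known from liver, fat and myeloid cells. Nfkbia, Cebpb and Cebpd are also known to respond to glucocorticoids, and in brain microglia, astrocytes and endothelial cells all carry the pathway.

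Promoters are shown for Nfkbia, Tnfaip3 and Cebpb, which differed between CIE and Ctrl, and for Nfkb2, an NF-kB target that was not called. They are the 250 bases before the start of transcription from RefSeq (GRCm38.p6), 5′ to 3′ on the strand of the gene, with matches to the NF-kB consensus on either strand in capitals. The intervals are chr12:55492648-55492897 on the minus strand for Nfkbia, chr10:19015411-19015660 on the minus strand for the first start site of Tnfaip3, chr19:46304487-46304736 on the plus strand for the first start site of Nfkb2, and chr2:167688665-167688914 on the plus strand for Cebpb.
Nfkbia: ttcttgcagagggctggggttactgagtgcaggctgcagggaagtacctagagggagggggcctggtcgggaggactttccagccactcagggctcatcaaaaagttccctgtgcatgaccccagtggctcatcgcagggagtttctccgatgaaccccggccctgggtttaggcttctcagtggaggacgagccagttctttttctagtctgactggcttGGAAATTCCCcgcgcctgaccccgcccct
Tnfaip3: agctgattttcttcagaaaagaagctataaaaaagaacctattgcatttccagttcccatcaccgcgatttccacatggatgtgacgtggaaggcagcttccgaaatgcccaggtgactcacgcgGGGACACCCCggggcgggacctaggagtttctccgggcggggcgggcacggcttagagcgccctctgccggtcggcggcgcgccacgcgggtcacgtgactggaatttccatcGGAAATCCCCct
Nfkb2: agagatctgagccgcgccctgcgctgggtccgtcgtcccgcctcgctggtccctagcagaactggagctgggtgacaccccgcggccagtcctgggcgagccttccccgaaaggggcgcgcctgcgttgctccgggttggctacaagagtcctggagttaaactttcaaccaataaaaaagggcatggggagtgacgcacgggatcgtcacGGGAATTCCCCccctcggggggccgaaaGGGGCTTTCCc
Cebpb: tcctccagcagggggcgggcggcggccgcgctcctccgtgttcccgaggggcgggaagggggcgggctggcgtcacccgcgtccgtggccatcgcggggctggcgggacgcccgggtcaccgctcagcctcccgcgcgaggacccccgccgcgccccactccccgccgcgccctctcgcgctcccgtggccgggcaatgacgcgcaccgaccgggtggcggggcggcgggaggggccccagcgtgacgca

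Nfkbia held 1 match, at -29 to -20 from the start site, and Tnfaip3 held 2, at -125 to -116 and at -12 to -3. Nfkb2 held 3 matches at this start site, of which those at -39 to -30 and at -38 to -29 overlap and appear as 1 run of capitals. No match lay in the 250 bases before Cebpb. RefSeq promoters were found for 8 of the 10 listed genes, with 12 start sites, and those of Cebpd and Nfkb1 are not among them. A match was found at 6 of the 12 start sites, which belong to Nfkbia, Tnfaip3, Nfkb2 and Il1r1, and in 7.25% of all 32851 promoters of this length. The C/EBP motif TTGCNNAA was found at 1 of the 12 start sites, of Il1r1, and in 9.56% of all promoters. The palindromic glucocorticoid response element was found at 0 of the 12 and in 0.387% of all promoters. Both strands were searched. A match is a description of these letters and not a site of binding. At 0 h, of the genes with a match, Nfkbia rose, Tnfaip3 fell and Nfkb2 and Il1r1 were not called.

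The values had been quantile normalized, which makes arrays alike in level, and array medians lay between 6.78 and 6.83 on the log2 scale. Correlations between arrays were 0.981 to 0.998. The mean of 9 neuronal markers lay between 12.1 and 12.3 in every array, and that of 9 markers of neutrophils, monocytes and T cells between 5.80 and 6.44. No marker of the BNST itself was among the lists. Values are log2 probeset intensities, each gene is represented by its probeset of highest mean level, and a difference is called where limma gave an adjusted p no higher than 0.01. Arrays give no count of molecules, so the number of mice limits the precision. In bulk tissue a change in the number of cells of a type and a change in RNA per cell cannot be told apart.

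Directly after the last session, the transcripts of Nfkbia, Cebpb and Cebpd were higher in CIE and that of Tnfaip3 was lower. Of the 9 genes 3 rose (Nfkbia, Cebpd and Cebpb), 1 fell (Tnfaip3) and 5 were not called, against 3.09% of 18193 genes called at 0 h (1.55% higher and 1.54% lower). The median log2 difference of the 9 was 0.098, and that of all genes 0.00090. At 8 h 2 rose (Cebpd and Cebpb) and 7 were not called, against 0.742% of all genes (0.445% higher), and the median was 0.13. At 72 h 0 were called in limma (0.687% of all genes), with 5 at an unadjusted p under 0.05, all of them lower in CIE, beside 17% of all genes (8.7% lower), and the median was -0.18. At 7 d limma called 0 of the 9 and 0 of all genes, and 0 of the 9 had an unadjusted p under 0.05. With the 4 times tested together, a CIE effect was called for Nfkbia, Cebpb and Cebpd and not for Tnfaip3 (adjusted p = 0.0199), against 3.73% of all genes.

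Nfkbia had values of 11.55 to 11.95 (median 11.84) in the 6 Ctrl mice at 0 h and of 12.14 to 12.55 (median 12.33) in the 6 CIE mice. The groups did not overlap, as in 3.22% of all genes at this time. Its mean was 11.81 ± 0.15 in Ctrl (SD, n = 6) and 12.33 ± 0.14 in CIE (SD, n = 6), a log2 difference of 0.51 (SE 0.083, adjusted p = 5.64e-05) or 1.43-fold. Nfkbia had 5 probesets, and 4 of them rose at 0 h (2.4% of all probesets were called), by 0.51, 0.63, 0.70 and 0.71, while the dimmest differed by 0.19 (adjusted p = 0.0840). At 8 h Ctrl mice lay at 11.49 to 11.73 (median 11.55) and CIE mice at 11.77 to 12.14 (median 11.91), again without overlap, which 1.42% of all genes showed. The difference of 0.35 for the representative probeset missed the threshold (adjusted p = 0.0174), whereas 3 of the other probesets of Nfkbia rose, by 0.47, 0.59 and 0.71, where 0.557% of all probesets were called. At 72 h the order was turned for Nfkbia. Ctrl mice lay at 11.60 to 12.06 (median 11.78) and CIE mice at 11.43 to 11.67 (median 11.54), so that 5 of 6 CIE mice lay under the lowest Ctrl mouse, and the difference of -0.26 was not called (adjusted p = 0.0984). All 5 probesets were lower in CIE at 72 h, by 0.20 to 0.33, and none was called.

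Tnfaip3 moved the other way at 0 h. Ctrl mice lay at 6.77 to 7.38 (median 7.15) and CIE mice at 6.53 to 6.86 (median 6.77), and 3 of 6 CIE mice were below every Ctrl mouse. The mean fell from 7.14 ± 0.23 in Ctrl to 6.74 ± 0.12 in CIE (SD, n = 6 each), a difference of -0.40 (SE 0.096, adjusted p = 0.00701). The dimmer probeset of Tnfaip3, with a mean level of 4.80, differed by -0.021 (adjusted p = 0.954), and the mean of both probesets was not called (-0.21, adjusted p = 0.116). The call of Tnfaip3 also ended when only the 0 h groups were fitted (adjusted p = 0.0536) or when any of 7 single mice was left out. At 8 h and 72 h the differences were -0.12 and -0.19, and neither was called.

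**Figure D1:**
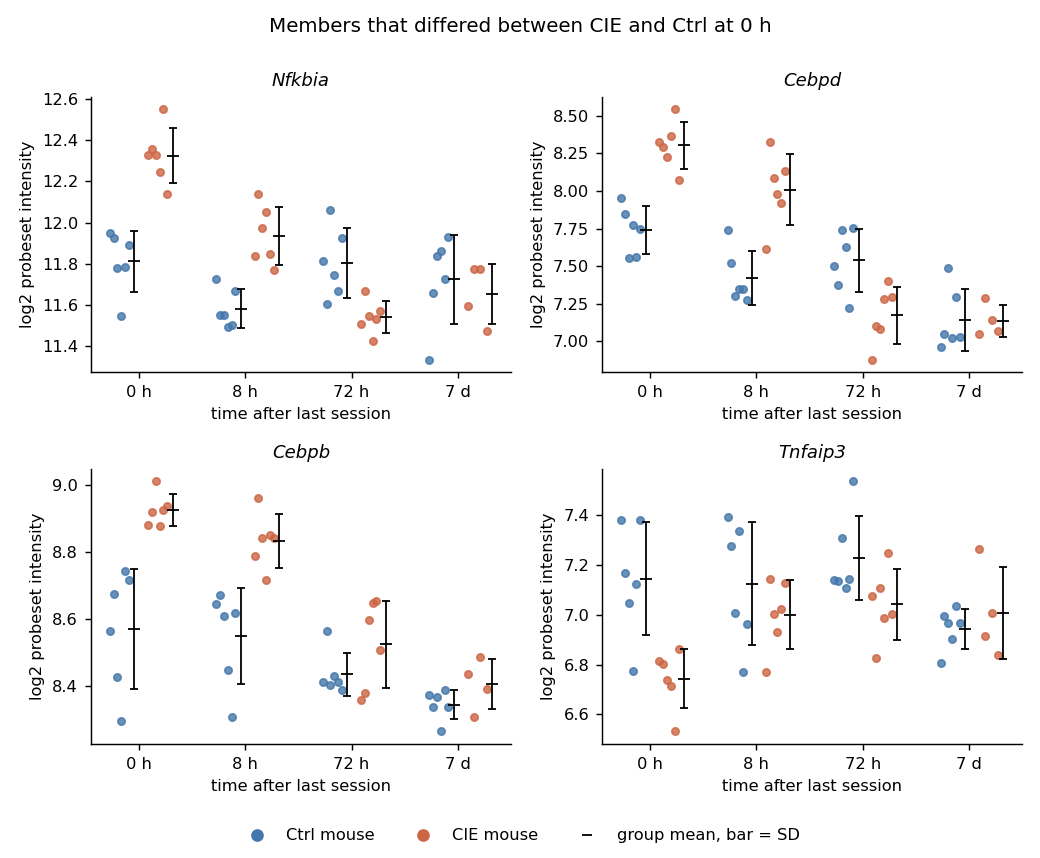
Log2 probeset intensity (vertical axis) of Nfkbia, Cebpd, Cebpb and Tnfaip3 in each mouse against the time of collection (horizontal axis), with Ctrl in blue, CIE in orange and bars for the group mean and SD. At 0 h the CIE mice lie above every Ctrl mouse for Nfkbia, Cebpd and Cebpb, and the 6 CIE values of Tnfaip3 lie between 6.53 and 6.86.

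The subunits were not called at any time. Nfkb2, which codes for the p100 precursor of p52 and is itself induced by NF-kB, lay at 7.39 to 7.78 (median 7.54) in Ctrl and at 7.57 to 7.85 (median 7.62) in CIE at 0 h. The difference was 0.098 (95% interval -0.057 to 0.25), and its other probeset had the opposite sign, -0.068. Rela lay at 8.93 to 9.35 (median 9.19) in Ctrl and at 9.02 to 9.21 (median 9.16) in CIE at 0 h, a difference of -0.031 (95% interval -0.21 to 0.14). At 72 h Rela differed by -0.18 (95% interval -0.35 to -0.0036, adjusted p = 0.382).

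By representative probeset Cebpd had the largest differences of the 9 genes at 0 h and 8 h, while single probesets of Nfkbia reached 0.71 at both times. At 0 h Ctrl mice lay at 7.55 to 7.95 (median 7.76) and CIE mice at 8.07 to 8.54 (median 8.31), without overlap, and the difference was 0.56 (SE 0.11, adjusted p = 0.000427) or 1.48-fold. At 8 h Ctrl mice lay at 7.28 to 7.74 (median 7.34) and CIE mice at 7.61 to 8.32 (median 8.03), where 5 of 6 CIE mice passed the highest Ctrl mouse, and the difference was 0.59 (SE 0.11, adjusted p = 0.000805). At 72 h Cebpd was lower in CIE, at 6.88 to 7.40 (median 7.19) against 7.22 to 7.76 (median 7.57), a difference of -0.37 that was not called (adjusted p = 0.0596). By 7 d the groups lay together, at means of 7.13 ± 0.11 in CIE (SD, n = 4) and 7.14 ± 0.21 in Ctrl (SD, n = 6). The second probeset of Cebpd, with a mean level of 5.25, did not share the CIE difference of the first, and differed by 0.044 at 0 h and -0.014 at 8 h. Over the 46 arrays the 2 probesets correlated at 0.44. With the mean of both probesets the difference of Cebpd was 0.30 at 0 h and the 8 h call ended (0.29, adjusted p = 0.0224), as it did when only the 8 h groups were fitted (adjusted p = 0.0421).

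Cebpb rose at the same times by less. At 0 h Ctrl mice lay at 8.30 to 8.74 (median 8.62) and CIE mice at 8.88 to 9.01 (median 8.92), and at 8 h at 8.31 to 8.67 (median 8.61) and 8.72 to 8.96 (median 8.84). Neither pair of groups overlapped. The difference was 0.35 at 0 h (SE 0.062, adjusted p = 0.000194) and 0.28 at 8 h (SE 0.062, adjusted p = 0.00895). These SEs rest on a spread shared by all 8 groups, while the SD at 0 h was 0.18 in Ctrl and 0.049 in CIE. Its second probeset differed in the same direction, by 0.21 (adjusted p = 0.208) and 0.14 (adjusted p = 0.681), and was not called. The 8 h call of Cebpb lay close to the threshold and held in 17 of the 46 fits that left out 1 mouse. With only the compared groups the Cebpb calls ended at 0 h (adjusted p = 0.0284) and at 8 h (adjusted p = 0.120), and with the mean of both probesets the 8 h call ended (adjusted p = 0.111). Cebpa was not called at any time. It lay at 6.70 to 6.95 (median 6.75) in Ctrl and 6.71 to 7.00 (median 6.87) in CIE at 0 h, a difference of 0.095 (95% interval -0.042 to 0.23), and at 72 h it differed by -0.18 (adjusted p = 0.193).

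**Figure D2:**
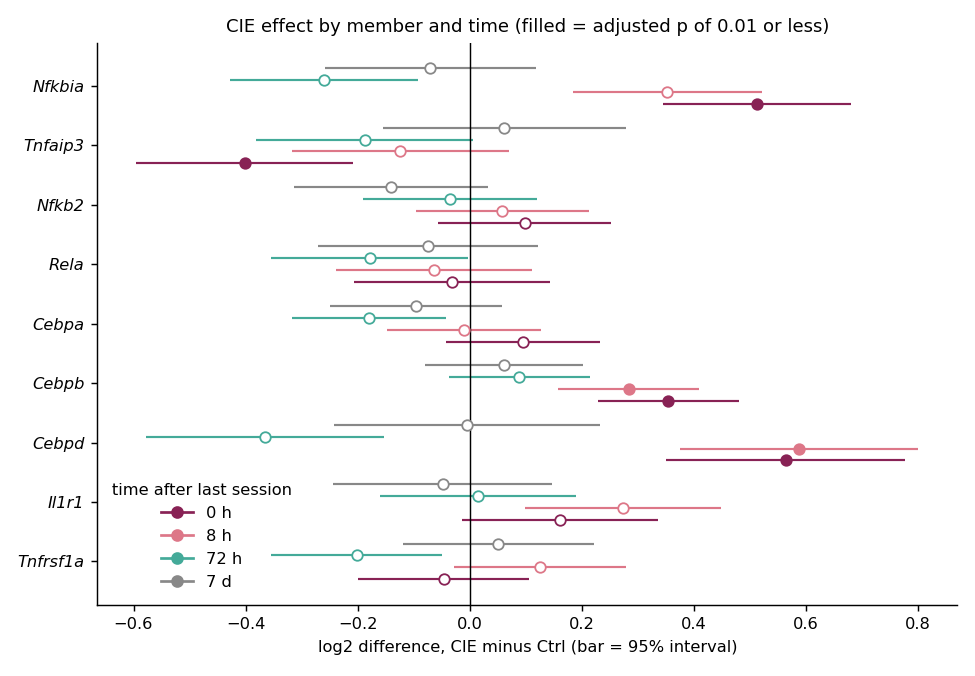
Log2 difference, CIE minus Ctrl, with its 95% interval (horizontal axis) for the representative probeset of each of the 9 genes (vertical axis) at the 4 times, with called differences filled. The filled points are Nfkbia, Tnfaip3, Cebpb and Cebpd at 0 h and Cebpb and Cebpd at 8 h.

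The receptors were not called. Il1r1, the signalling receptor of interleukin 1, lay at 6.61 to 6.97 (median 6.82) in Ctrl and 6.69 to 7.13 (median 6.98) in CIE at 0 h, and at 6.63 to 7.03 (median 6.86) and 6.89 to 7.39 (median 7.15) at 8 h. At 8 h 4 of 6 CIE mice were above every Ctrl mouse, and the difference of 0.27 (95% interval 0.099 to 0.45) had an adjusted p of 0.123. Tnfrsf1a, the main receptor of tumor necrosis factor, differed by -0.046 at 0 h (95% interval -0.20 to 0.11) and by 0.13 at 8 h. At 72 h it lay at 8.93 to 9.30 (median 9.16) in Ctrl and 8.84 to 9.03 (median 8.96) in CIE, a difference of -0.20 (adjusted p = 0.187).

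**Figure D3:**
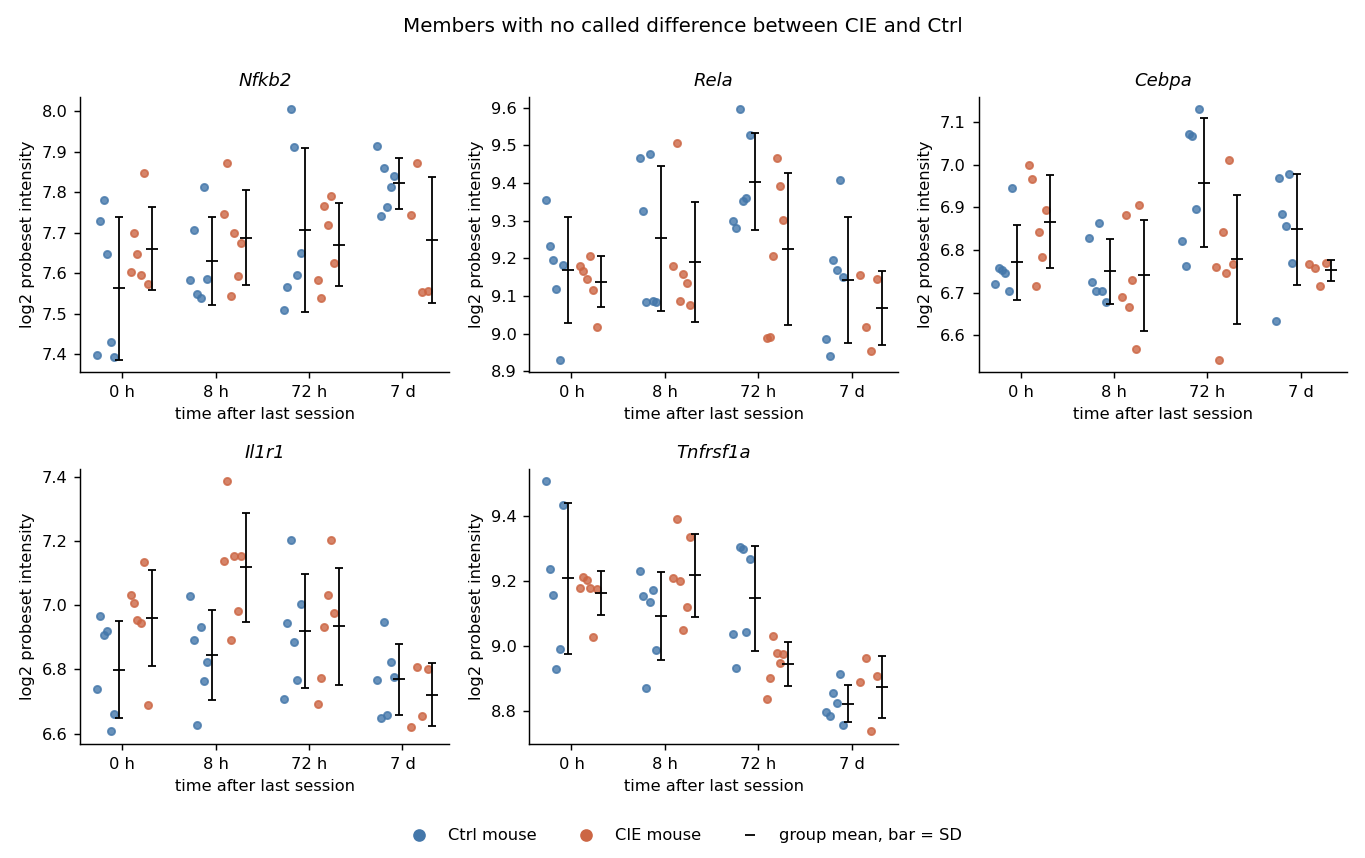
Log2 probeset intensity (vertical axis) of Nfkb2, Rela, Cebpa, Il1r1 and Tnfrsf1a in each mouse against the time of collection (horizontal axis), with Ctrl in blue, CIE in orange and bars for the group mean and SD. Ctrl and CIE values overlap for each gene at each time, and Tnfrsf1a is lowest in the 7 d groups, at means of 8.82 in Ctrl and 8.87 in CIE.

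Whether the CIE effect changed from one time to another was tested directly. Over the 4 times a change was called for Nfkbia (adjusted p = 5.60e-05) and Cebpd (adjusted p = 3.65e-05) and for none of the other 7, against 1.37% of all genes. All 5 probesets of Nfkbia passed this test, while the second probeset of Cebpd did not (adjusted p = 0.976). From 0 h to 72 h the effect fell by 0.77 for Nfkbia (SE 0.12, adjusted p = 5.49e-05) and by 0.93 for Cebpd (SE 0.15, adjusted p = 0.000112), a change called in 1.25% of genes. From 8 h to 72 h it fell by 0.61 for Nfkbia (adjusted p = 0.00237) and by 0.95 for Cebpd (adjusted p = 0.000211), against 0.764% of genes. From 0 h to 7 d the change was called for Nfkbia (-0.58, adjusted p = 0.00789; 0.522% of genes) and not for Cebpd (-0.57, adjusted p = 0.0622). The Nfkbia call from 0 h to 7 d held in 32 of the 46 fits that left out 1 mouse. Cebpb, whose effect was 0.35 at 0 h and 0.089 at 72 h, had no called change (adjusted p = 0.104 over the 4 times), nor had Tnfaip3 (adjusted p = 0.239). Between 0 h and 8 h no change was called for any of the 9 (0.121% of genes), and for Nfkbia it was -0.16 (95% interval -0.40 to 0.078).

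Part of these courses lay in the Ctrl mice. The times also differ in time since handling and pyrazole and can differ in hour of day. These cannot be told apart from time since the last session. By representative probeset Cebpd (adjusted p = 0.000531) and Tnfrsf1a (adjusted p = 0.00103) changed over the 4 Ctrl groups, against 11% of all genes. Nfkbia did not (adjusted p = 0.102), but its probesets of mean level 10.39 and 9.31 did (adjusted p = 0.00179 and 0.00337). In Ctrl these probesets had means of 10.41 and 9.41 at 0 h and of 9.99 and 8.88 at 8 h. The second probeset of Cebpd was not called (adjusted p = 0.0949). From 0 h to 7 d in Ctrl, Cebpd fell by 0.60 (adjusted p = 0.000254) and Tnfrsf1a by 0.39 (adjusted p = 0.00102), each without overlap between the groups, where 2.94% of genes were called and 2.38% did not overlap. Over the 4 CIE groups Nfkbia, Cebpb, Cebpd and Tnfrsf1a changed, against 8.77% of genes. The second probeset of Cebpd did not (adjusted p = 0.355), and that of Cebpb did (adjusted p = 0.000566). In CIE from 0 h to 8 h Nfkbia fell by 0.39 (adjusted p = 0.00205; 2.97% of genes called). In CIE from 0 h to 72 h Nfkbia fell by 0.78, Cebpb by 0.40 and Cebpd by 1.13 (7.08% of genes called), and from 0 h to 7 d they fell by 0.67, 0.52 and 1.17 (3.52% of genes called). These differences share the CIE mice at 0 h.

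Ordered by mean level, Nfkbia was highest in CIE at 0 h (12.33), by more than the residual SD of 0.15 above CIE at 8 h (11.94), and the remaining 6 groups followed from Ctrl at 0 h (11.81) down to CIE at 72 h (11.54) in steps below that SD. Cebpd ran from CIE at 0 h (8.30) over CIE at 8 h (8.01) to Ctrl at 0 h (7.74), each step above its residual SD of 0.19, and ended with CIE at 72 h, Ctrl at 7 d and CIE at 7 d together at 7.17 to 7.13. Cebpb had CIE at 0 h (8.92) and CIE at 8 h (8.83) within an SD of 0.11 of each other, with a larger step of 0.26 to Ctrl at 0 h (8.57). Tnfaip3 had CIE at 0 h lowest (6.74), by 0.20 below the next group. For Nfkb2, Rela and Cebpa no step between neighbours in the order was larger than the residual SD. For Il1r1 and Tnfrsf1a 1 step was, below CIE at 8 h (7.12) and below Ctrl at 8 h (9.09) respectively.

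Across all 46 arrays Nfkbia and Cebpd had a Pearson correlation of 0.81, Cebpb and Cebpd 0.79 and Nfkbia and Cebpb 0.63. With the 8 group means taken out these were 0.50, 0.22 and 0.11. Some pairs with uncalled genes were as high or higher. Cebpd and Tnfrsf1a correlated at 0.70 over the arrays. With the group means taken out Rela and Il1r1 were at 0.68, Nfkb2 and Il1r1 at 0.64 and Cebpd and Il1r1 at 0.63. Nfkbia and Tnfaip3 correlated at -0.28 over the arrays and at 0.28 with the group means taken out. These are descriptions over 46 arrays that share treatments, times and normalization.

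**Figure D4:**
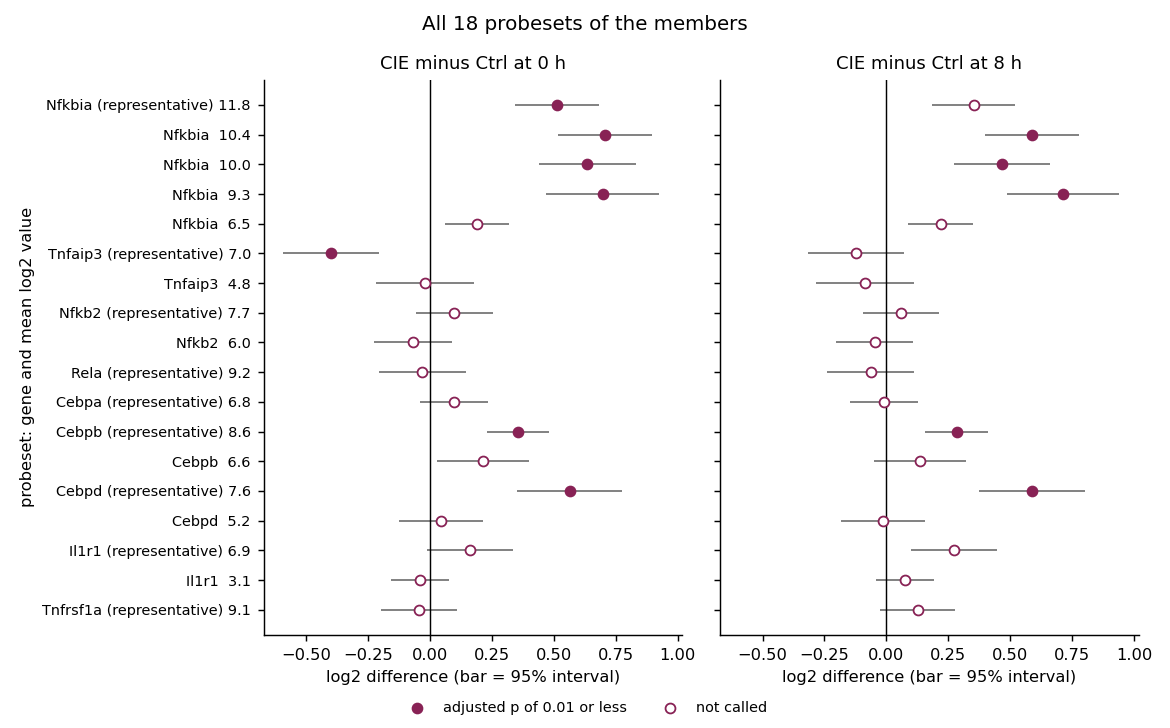
Log2 difference, CIE minus Ctrl, with its 95% interval (horizontal axes) at 0 h and 8 h for all 18 probesets (vertical axis, with the mean log2 level beside the gene), with called differences filled. All 5 probesets of Nfkbia lie above 0 at both times, while the dimmer probesets of Cebpd and Tnfaip3 lie near 0.

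Of 107 further NF-kB and C/EBP pathway genes 97 were measured. At 0 h 1 of them fell, 0 rose and 96 were not called, against 3.09% of all genes called. The median of the 97 genes was -0.0042. An unadjusted p under 0.05 was found for 22 of them (10 higher and 12 lower), beside 20% of all genes. Trib2, a pseudokinase that promotes degradation of C/EBP alpha, was the gene called, at 10.01 ± 0.13 in Ctrl and 9.66 ± 0.033 in CIE (SD, n = 6 each), a difference of -0.35 (SE 0.047, adjusted p = 2.50e-06) with all 6 CIE mice under the lowest Ctrl mouse. Next by p came Vcam1, an endothelial adhesion molecule (-0.31, adjusted p = 0.0222), Ikbkb, the catalytic IkB kinase (-0.20, adjusted p = 0.0299), the subunit Relb (-0.33, adjusted p = 0.0419), Il6st, the shared receptor chain gp130 (-0.17, adjusted p = 0.0496), and Otud7b, a deubiquitinase (0.31, adjusted p = 0.0533). The other 6 members of the IkB family were all lower in CIE at 0 h, with a median of -0.13, and 0 of them were called. Of 19 genes that NF-kB induces 10 were higher and 9 lower, with a median of 0.0027 and 0 called. The 8 ligands measured had a median of 0.020, the 12 other receptors -0.012 and the 13 adaptors -0.015. The 9 kinases had a median of 0.034 and the 13 other negative regulators 0.039, with none called in any of these lists.

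At 8 h limma called 0 of the 97 genes, against 0.742% of all genes. An unadjusted p under 0.05 was found for 16, of which 13 were higher in CIE, beside 12.3% of all genes (4.45% higher). Trib1, a relative of Trib2, came closest (0.29, adjusted p = 0.0126, all 6 CIE mice above every Ctrl mouse). Csf1, a growth factor of microglia, differed by 0.21 (adjusted p = 0.0246), Trib2 by -0.17 (adjusted p = 0.0548), the cytokine Il6 by 0.32 (adjusted p = 0.0982), Lcn2, an acute phase protein, by 0.36 (adjusted p = 0.243) and Tax1bp1, a partner of A20, by 0.096 (adjusted p = 0.265). The 19 genes that NF-kB induces had a median of 0.13 at 8 h, with 12 higher, beside -0.0082 for all genes. At 72 h 0 were called, against 0.687% of all genes. An unadjusted p under 0.05 was found for 16, all 16 lower in CIE, beside 17% of all genes (8.7% lower). These included Otud7b (-0.35, adjusted p = 0.0487), Tlr4 (-0.41, adjusted p = 0.0769) and Tlr2 (-0.35, adjusted p = 0.0965), receptors for microbial products. They also included Il18, a cytokine (-0.15, adjusted p = 0.0788), Il1rap, the co-receptor of Il1r1 (-0.30, adjusted p = 0.110), and Sod2, the mitochondrial superoxide dismutase (-0.16, adjusted p = 0.131). At 72 h 10 of 12 other receptors were lower in CIE, with a median of -0.14, and 12 of 13 adaptors, with a median of -0.057, beside -0.0036 for all genes. At 7 d 0 were called, as among all genes (0), and 4 had an unadjusted p under 0.05, beside 3.48% of all genes. The smallest p values there were those of Gadd45b (-0.22), Bcl3 (-0.25), Cxcl2 (0.14), Tnip2 (0.13), Ticam1 (-0.17) and Map3k14 (-0.19), each with an adjusted p of 0.847 or more.

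**Figure D5:**
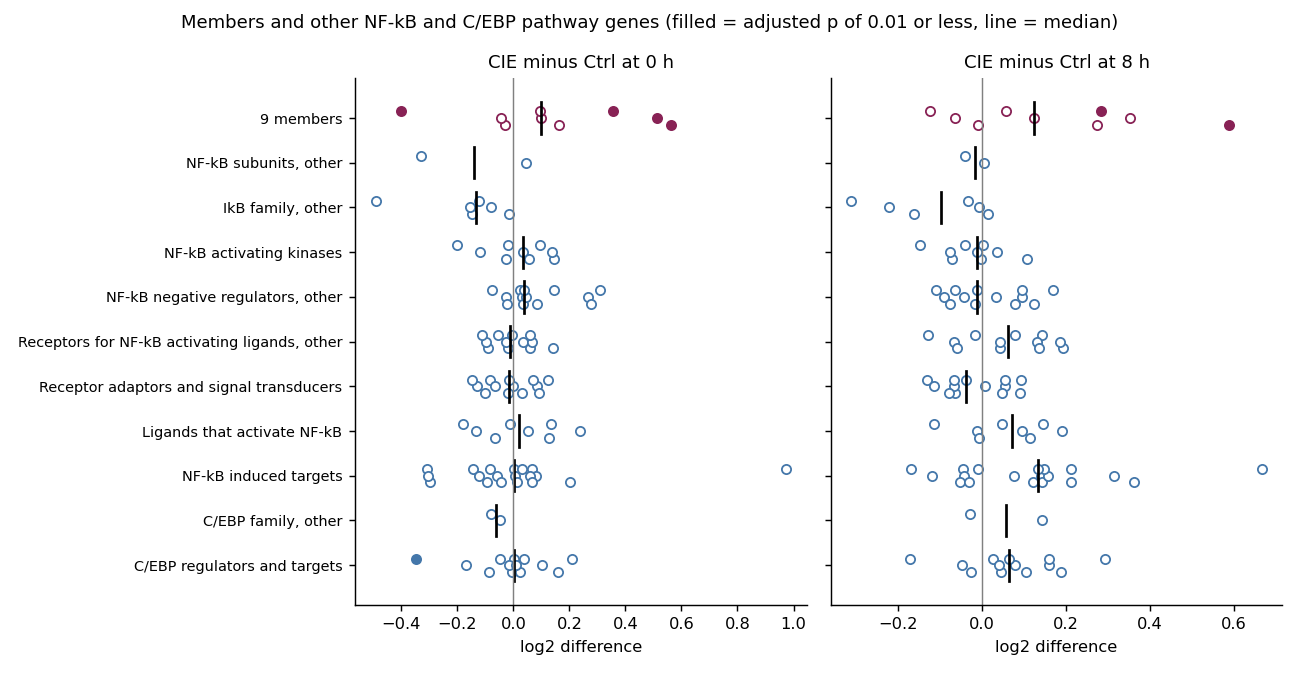
Log2 difference, CIE minus Ctrl (horizontal axes), at 0 h and 8 h for the 9 genes and for the genes of 10 pathway lists (vertical axis), with the median of each list as a line and called genes filled. Outside the 9 genes the filled point at 0 h is Trib2 (-0.35), and no other point is filled at 8 h.

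Markers of several cell types differed between CIE and Ctrl. Of 72 markers 1 rose and 8 fell at 0 h, against 3.09% of all genes called. At 8 h 0 rose and 1 fell, against 0.742% of all genes, and at 72 h 2 rose and 2 fell, against 0.687%. The median of all genes was 0.00090 at 0 h and -0.0036 at 72 h. At 0 h 13 of 14 microglia markers were lower in CIE, with a median of -0.33, and 3 fell, Fcrls by 1.30, Olfml3 by 0.60 and Gpr34 by 0.49 on the log2 scale. The mean of the 14 markers was 9.31 to 9.71 in Ctrl and 8.90 to 9.32 in CIE at 0 h, and 9.57 to 9.68 against 9.06 to 9.44 at 72 h, where 14 of 14 were lower (median -0.45) and C1qb fell by 0.51. At 72 h 7 of 7 oligodendrocyte markers were also lower (median -0.25), 7 of 9 astrocyte markers were lower and S100b fell (-0.25), 8 of 9 neuron markers were higher (median 0.13) and Map2 rose (0.17), and Otx2, a choroid plexus marker, rose (0.73). At 8 h Fcrls fell by 0.86 and the microglia list ranged over 9.10 to 9.51 in Ctrl and 8.93 to 9.53 in CIE. At 8 h 9 of 9 markers of neutrophils, monocytes and T cells were higher in CIE (median 0.13, all genes -0.0082). Of choroid plexus and ependyma 6 of 7 were higher, of neurons 7 of 9, of microglia 5 of 14 and of mural cells 2 of 8. None of those higher at 8 h was called. Kdr (-0.40) and Itm2a (-0.31) of 9 endothelial markers, Kcnj8 (-0.55) and Vtn (-0.41) of 8 mural cell markers and the oligodendrocyte gene Ugt8a (-0.39) also fell at 0 h, and Kl of 7 markers of choroid plexus and ependyma rose (0.42). None of 9 astrocyte and 9 neuron markers and none of 9 markers of neutrophils, monocytes and T cells was called at 0 h. The medians at 0 h were -0.14 for endothelial and -0.23 for mural markers, 0.090 for choroid plexus and ependyma and 0.10 for neutrophils, monocytes and T cells. The part of these markers in the results for Tnfaip3, Nfkbia, Cebpb and Cebpd was not tested.

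The genes whose level followed each called gene most closely were sought among all 18193, as a description over 46 arrays. For Nfkbia they were Gm19439 (r = 0.92), Gm9895 (r = 0.92) and Arrdc2 (r = 0.92), and with the group means taken out r was 0.75, 0.64 and 0.71. For Cebpd they were Sult1a1 (r = 0.92), Xdh (r = 0.90) and Pdk4 (r = 0.90), and with the group means taken out r was 0.54, 0.71 and 0.52. For Cebpb they were Ssr3 (r = 0.86), Pdk4 (r = 0.86) and Plin4 (r = 0.85), which dropped to 0.30, 0.38 and 0.32 with the group means taken out. For Tnfaip3 they were Shc4 (r = 0.85), Prom1 (r = 0.83) and Urb2 (r = 0.83), and r stayed at 0.79, 0.74 and 0.73. The median r of all genes was between -0.017 and 0.13 for these 4 genes.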

How the data were processed

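RNA from the BNST of single mice was hybridized to Affymetrix arrays. The deposited values are on a log2 scale. The authors had corrected the background by RMA, normalized by quantiles within each hybridization batch and again over all arrays, and removed the batch with ComBat (tool versions and the batch of each array are not given in the sources used here). Batch could therefore not be a term, within-batch values could not be given, and the degrees of freedom do not count the batches removed. A shift of most genes in 1 direction would be lost by quantile normalization. The study describes 6 mice for every group, and 46 arrays were analysed, with 4 for CIE at 7 d. No 2 arrays were identical. Groups came from the treatment and time in the labels.

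The 8 groups of the 46 arrays were fitted as means, over 45037 probesets, with limma 3.58.1 in R 4.3.3 (38 residual and 3.94 prior degrees of freedom), two-sided, with Benjamini-Hochberg adjustment within each comparison over all probesets. The threshold was an adjusted p of 0.01. All adjusted p values are from limma. Changes over several times were tested with its moderated F. Data were simulated over 45037 probesets, with 100 changed by 0.5 and 100 by 1 in CIE at 0 h. Of these 74 and 100 were recovered, with 2 false calls. The simulated noise was independent between probesets and arrays and held no batch, so these figures need not hold for the real arrays.

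Symbols came from the platform annotation (34945 probesets with 1 symbol, 932 with several, 9160 with none), and the representative probeset of a gene has the highest mean among probesets with only its symbol. The text names all members with every probeset. Of the pathway lists it names genes called between CIE and Ctrl and, where fewer than 6 were called, those of smallest p up to 6. Of the marker lists it names those called between CIE and Ctrl at any time. For each member called between CIE and Ctrl it names the 3 genes with the highest correlation. The members and lists were chosen with earlier results of these data known. Promoters came from RefSeq (GRCm38.p6). Alternatives were the compared groups alone, array weights, a trended robust prior, aligned medians, a filter on dim probesets, 2 residual components, the mean of all probesets and each array left out.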

Additional observations from a re-analysis of the deposited data

Results flagged for a closer look

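The CIE effect on Nfkbia (adjusted p = 5.60e-05) and on Cebpd (adjusted p = 3.65e-05) differed between times by the test of the difference itself. For Cebpd this held for the representative probeset and not for the second (adjusted p = 0.976). The effects at 0 h, 8 h, 72 h and 7 d were 0.51, 0.35, -0.26 and -0.070 for Nfkbia and 0.56, 0.59, -0.37 and -0.0047 for Cebpd.

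In 4 of 72 sets of a gene and a group the highest or lowest mouse stood apart from its group by Dixon's test, where chance gives about 1 in 20 or 3.6. Cebpa was highest in a Ctrl mouse at 0 h (replicate 64) at 6.95, with the next at 6.76. Cebpb was highest in a Ctrl mouse at 72 h (replicate 24) at 8.56, with the next at 8.43. Rela was highest in a CIE mouse at 8 h (replicate 21) at 9.51, with the next at 9.18. This mouse was also the highest of its group for Nfkbia (12.14), Cebpb (8.96), Cebpd (8.32) and Il1r1 (7.39). The same held for Tnfrsf1a (9.39), Nfkb2 (7.87) and Tnfaip3 (7.14), and not for Cebpa. Its weight in the fit with array weights was 0.33, and without it the Cebpb call at 8 h ended (adjusted p = 0.0277). Tnfrsf1a was lowest in a CIE mouse at 0 h (replicate 57) at 9.03, with the next at 9.17.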

How the results depend on the processing

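Counts of called genes among the 9 kept within 1.5 times of 4 at 0 h, 2 at 8 h and 0 at 72 h and 7 d with array weights, a trended robust prior, aligned medians and the filter on dim probesets, which all 9 passed. With only the compared groups 2 were called at 0 h and 0 at 8 h, where Tnfaip3 (adjusted p = 0.0536) and Cebpb (adjusted p = 0.0284) lost the call at 0 h and Cebpb (adjusted p = 0.120) and Cebpd (adjusted p = 0.0421) at 8 h. The array weights, lower for noisier arrays, lay between 0.24 and 0.93 in Ctrl at 0 h, and the part of this in the lost calls was not tested. With 2 residual components as covariates 1 was called at 72 h, Cebpd (adjusted p = 0.00430), and 5 over the Ctrl time course in place of 2. With the mean of all probesets of a gene 1 was called at 8 h and 4 over the Ctrl time course, and at 8 h this was Nfkbia (0.47, adjusted p = 7.74e-05) while Cebpb (adjusted p = 0.111) and Cebpd (adjusted p = 0.0224) were not. Nfkbia at 8 h also passed with the dim filter (adjusted p = 0.00942) and with the components (adjusted p = 0.00303), at an unchanged difference of 0.35. The components were computed after the group means were taken out, so they cannot move a difference and act only on the residual spread. Calls gained with them, for Nfkbia at 8 h and Cebpd at 72 h, are therefore no separate support. Uncalled differences near 0 changed sign for Nfkb2 at 72 h with array weights (0.0013), and with the mean of probesets for Il1r1 at 72 h (-0.028) and Cebpd at 7 d (0.030). Aligning the medians moved the median of all probesets by less than 0.1 at each time. Over all probesets 1079, 251, 195 and 0 were called at 0 h, 8 h, 72 h and 7 d, which became 287, 36, 404 and 0 with only the compared groups, 2258, 675, 1123 and 63 with the components and 970, 476, 1151 and 0 with array weights. Without CIE mouse 57 at 0 h, Ctrl mouse 42 at 8 h or Ctrl mouse 68 at 72 h the count at that time was 689, 162 or 28. The causes were not tested.

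Leaving out each mouse in turn gave 3 to 4 called genes at 0 h, 1 to 2 at 8 h, 0 at 72 h and 7 d, 2 for the change of the effect, 2 to 3 over the Ctrl time course and 3 to 4 over the CIE time course (3 without the CIE mouse 59 at 7 d). The Tnfaip3 call at 0 h ended without Ctrl mouse 12 (adjusted p = 0.0286), 30 (0.0150), 56 (0.0119) or 64 (0.0292) or CIE mouse 26 (0.0161), 43 (0.0153) or 57 (0.0320) of that time. The Cebpb call at 8 h ended in 29 of 46 fits, at an adjusted p of 0.0102 to 0.0394, highest without the 8 h Ctrl mice 66 (0.0394) and 58 (0.0303). The Nfkbia change from 0 h to 7 d ended in 14 fits, at an adjusted p of 0.0105 to 0.0401, highest without CIE mouse 65 at 7 d. The Nfkbia fall from 0 h to 8 h in CIE ended without CIE mouse 57 at 0 h (adjusted p = 0.0112), and Nfkbia at 8 h was called without Ctrl mouse 28 at 7 d (adjusted p = 0.00629). Of 30 uncalled differences 7 changed sign, none larger than 0.062. No paired analysis was possible because each replicate number in the labels belongs to 1 mouse, so the groups share none. The number of mice, with 4 in CIE at 7 d, limits what could be called, and probesets of low mean level may show little of a change.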
